A study of Mus musculus with 8 samples.

Results

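The nuclear genes for subunits of respiratory complexes II to V were described across 8 heart libraries of wild-type mice (WT) and mice lacking TIGAR in the whole body (TKO). Members were chosen by symbol: *Sdha* to *Sdhd* for complex II, *Cyc1* and the *Uqcr* genes for complex III, the *Cox4i*, *Cox5*, *Cox6*, *Cox7*, and *Cox8* genes for complex IV, and the *Atp5* genes for complex V. Of 16994 genes in the count table, 46 were members with a count in at least 1 library, 4 in complex II, 9 in complex III, 17 in complex IV, and 16 in complex V. All but *Cox7b2* averaged 1 or more counts per 1000000 counts of a library (CPM), which left 45 members among 12999 genes tested.

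All hearts came from male mice. Hearts sampled in their infarct, border, and remote zones had undergone MI, induced at 16 weeks of age by permanently tying off the left anterior descending coronary artery, and the tissue was taken 4 weeks later. The left ventricle of each genotype served as the normal reference, and whether those hearts had a sham operation is not given in the sources used here. RNA of 3 mice was pooled for each infarct zone library. For the other regions the number of mice is not given in the sources used here. The allele carried by the TKO mice is not described there either, and the knockout is not limited to cardiomyocytes. With 1 library for each of the 2 genotypes and 4 regions, a ratio between 2 libraries has no replicate check, and its interval covers counting error only.

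Complexes II, III, and IV pass electrons from succinate and ubiquinol to oxygen, and complexes III and IV pump protons while doing so. Complex V, the ATP synthase, uses the returning protons to make ATP. Complex II is encoded by nuclear genes alone, whereas complexes III, IV, and V combine nuclear subunits with a few encoded by mitochondrial DNA. The heart depends on these complexes for its ATP, and in cardiomyocytes several small subunits of complex IV are replaced by muscle isoforms.

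Library totals lay between 27429240 and 33799249 counts. *Tigar* had 1066 to 2215 counts in the 4 WT libraries and 51 to 87 in the 4 TKO libraries, so the targeted gene was low in every library labelled TKO. Counts were scaled by TMM factors, which were 1.54 for the WT infarct zone, 1.26 for the TKO infarct zone, and 0.866 to 0.956 for the other 6 libraries. All 10 cardiomyocyte markers were detected in every library. Together the members took 1.48% of the counts in the WT infarct zone, 2.08% in the TKO infarct zone, and 2.58% to 3.31% in the other libraries. Values below are TMM-scaled CPM, and pairs of values give WT first and TKO second.

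The infarct zone held the lowest levels of nearly all members in both genotypes. In WT hearts the median infarct over left ventricle ratio of the 45 members was 0.297, beside 1.01 for all genes tested, and in TKO hearts it was 0.435, beside 1.01. At least 1.5-fold lower than the left ventricle were 42 of 45 members in WT, where 26% of all genes were, and 43 of 45 in TKO, where 20.4% were. In these bulk samples fewer cardiomyocytes and less RNA per cardiomyocyte cannot be told apart. The summed level of the cardiomyocyte markers was 43969 and 45304 CPM in the left ventricle, 10694 and 21566 in infarct zone tissue, 33513 and 40527 in the border zone, and 35307 and 40781 in remote tissue.

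Medians by complex in the WT infarct zone were 0.255 of the left ventricle for complex II, 0.284 for complex III, 0.324 for complex IV, and 0.293 for complex V. In TKO they were 0.457, 0.423, 0.447, and 0.435. Complex IV spread most, from 0.161 for *Cox5b* to 0.980 for *Cox6b2* (1.74 under total counts) in WT. Within complexes II, III, and V the WT ratios stayed between 0.193 (*Uqcrc1*) and 0.367 (*Atp5mpl*).

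**Figure D1:**
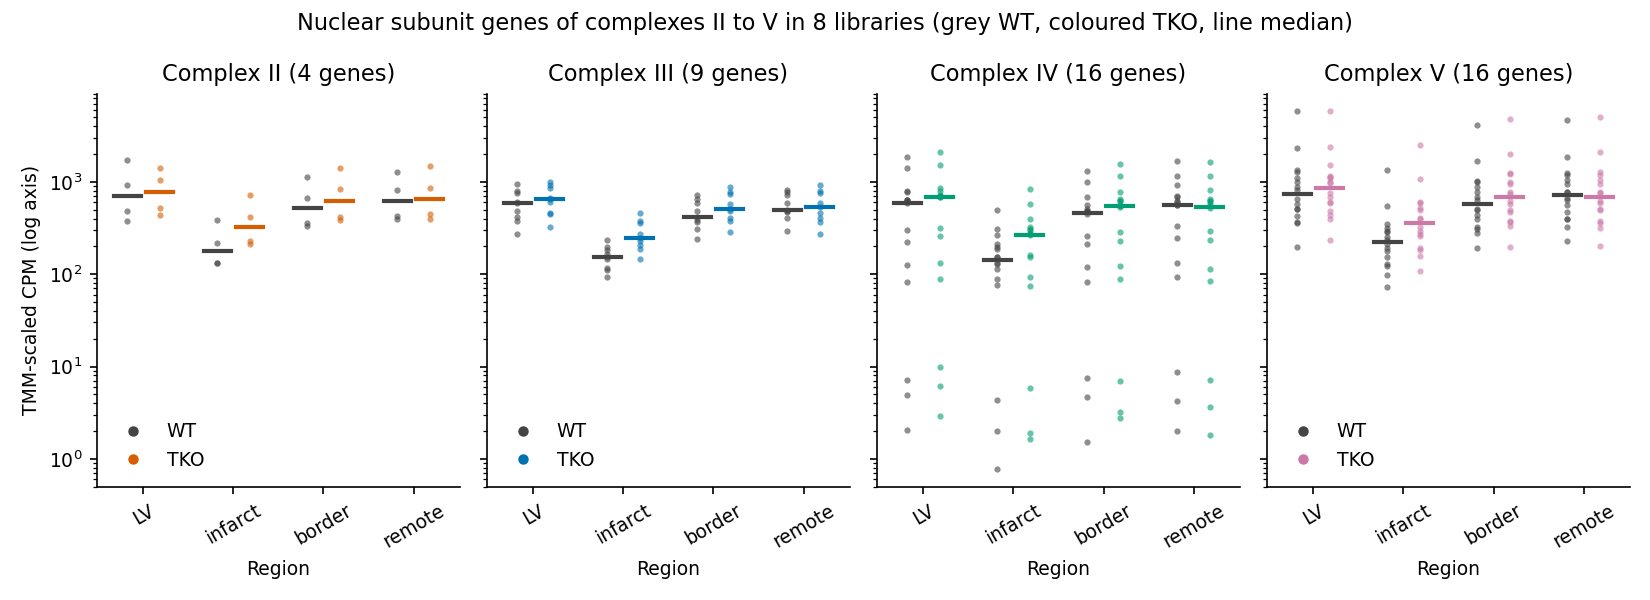
TMM-scaled CPM (log axis) of the 45 members that passed the filter, by complex and region, with WT in grey, TKO in colour, each point a gene and each line the median of the complex. Both infarct zone medians lie below those of the other regions in every complex, and the TKO infarct zone median lies above that of WT.

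With the genotypes standing in for replicates, edgeR's quasi-likelihood test of the infarct zone against the mean of the other 3 regions called 43 of 45 members lower (adjusted p from 0.00100 to 0.0271) and none higher, whereas 29.3% of all genes tested were called lower. DESeq2 also called 43 lower, against 29.2% of all genes. Such tests bear on these libraries and not on mice. The median fold over the 45 members was 0.398, beside 1.02 over all genes tested, and folds of the called members ran from 0.296 to 0.735. The members not called were *Cox6a1* (fold 0.871, edgeR adjusted p = 0.111) and *Cox6b2* (fold 0.853, edgeR adjusted p = 0.538). Under total counts, which raised the median of all genes in the WT infarct zone over the left ventricle by 0.83 on the log2 scale, edgeR called 40 members lower, against 8.54% of all genes, and *Cox6a1* higher (fold 1.36).

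In the border and remote zones the members lay nearer to the left ventricle. At least 1.5-fold lower in the border zone were 3 of 45 members in WT, *Cox7a1*, *Uqcrc1*, and *Sdha*, against 6.61% of all genes, and only *Cox5b* in TKO, against 4.98%. In the remote zone no member was so in WT, against 5.53% of all genes, and 2 were in TKO, *Cox6b2* and *Cox5b*, against 4.62%. Medians over the 45 members were 0.802 in WT and 0.842 in TKO for the border zone, and 0.965 (1.002 under total counts) and 0.847 for the remote zone.

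Between genotypes, the members stood higher in TKO than in WT in the infarct zone, by a median of 1.65-fold, beside 1.01-fold for all genes tested. The TKO level was above the WT level for 43 of 45 members, beside 6609 of 12999 genes tested. It was at least 1.5-fold above the WT level for 34 of 45 members, whereas 10.2% of all genes tested passed that fold. In the left ventricle the median was 1.12 and 0 of 45 members passed 1.5-fold, against 5.92% of all genes. The border zone had a median of 1.17 with only *Cox6b2* past 1.5-fold, against 3.73% of all genes, and the remote zone a median of 0.969 with 0 of 45 members past it, against 3.28%. *Cox6b2* rests on 47 and 83 counts in the border zone.

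All 4 complexes shared the higher TKO level in the infarct zone. Median TKO over WT ratios there were 1.79 for complex II, 1.67 for complex III, 1.56 for complex IV, and 1.64 for complex V. At least 1.5-fold higher in TKO were 4 of 4, 8 of 9, 9 of 16, and 13 of 16 members in that order. The remote zone medians were, in the same order, 1.04, 0.990, 0.911, and 0.981. Scaled by total counts, which set the median of all genes to 0.820 in the infarct zone (a shift of -0.29 on the log2 scale), the member median became 1.34 and 12 of 45 members passed 1.5-fold, against 4.05% of all genes.

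**Figure D2:**
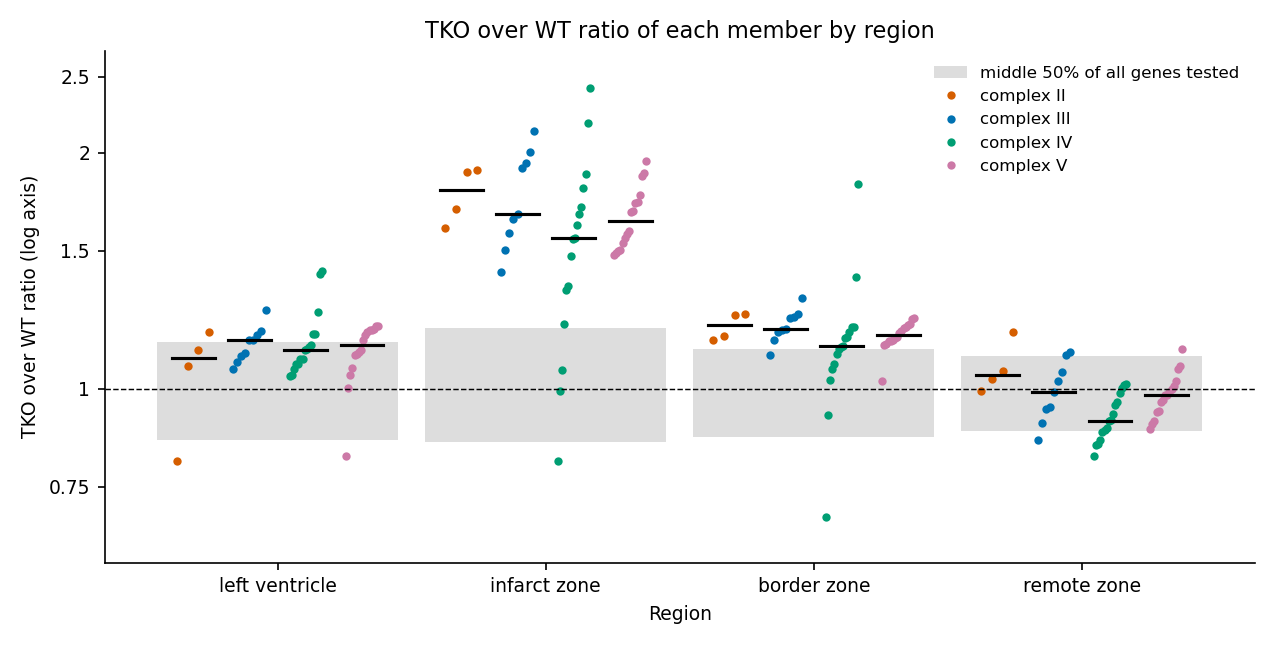
TKO over WT ratio (log axis) of each of the 45 members by region and complex, with the median of each complex as a black line and the middle 50% of all 12999 genes tested as a grey band. The member medians are 1.12 in the left ventricle, 1.65 in infarct zone tissue, 1.17 in the border zone, and 0.969 in remote tissue.

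Cardiomyocyte markers were also higher in the TKO infarct zone. Their summed level was 2.02-fold higher in the infarct zone of TKO than of WT hearts, with 10 of 10 markers higher, whereas the summed level of the members was 1.72-fold higher. Per unit of summed cardiomyocyte markers the members stood at 0.807 and 0.842 in the left ventricle, 0.897 and 0.767 in infarct zone tissue, 0.806 and 0.789 in the border zone, and 0.919 and 0.802 in remote tissue. Measured against these markers, the members of the TKO infarct zone stood below those of WT, the opposite order to their CPM. The 7 fibroblast markers summed to 7835 and 6540 CPM in the infarct zone and to 825 and 913 in the left ventricle, and the 6 macrophage markers to 1220 and 922 and to 261 and 233. In the border zone the fibroblast markers summed to 2851 and 1524 CPM, and the 4 atrial muscle markers to 1725 and 494. What part cell composition plays in the member ratios was not tested.

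Whether the infarct, border, and remote zones of a genotype came from the same hearts is not given in the sources used here, and zones of the same hearts would not be independent. With the 4 regions standing in for replicates all the same, edgeR called 0 of 45 members between genotypes, and 0.138% of all genes tested. The same test gave an unadjusted p under 0.05 for 1 of 45 members, *Atp5d* (fold 1.26, edgeR adjusted p = 0.303), beside 16.2% of all genes, and the Wald test of DESeq2 called 0, against 2.63% of all genes, with an unadjusted p under 0.05 for 18 members and 15.6% of all genes. The fold averaged over regions lay above 1 for 44 of 45 members, with a median of 1.20, beside 0.998 over all genes tested. In the remote zone alone 29 of 45 members stood below WT.

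Whether the genotype difference in the infarct zone departed from that in the other 3 regions was tested as an interaction. Each genotype had 1 infarct zone library, so a gene's residual spread came only from how its genotype difference varied among the other regions. Calls from this test bear on these libraries and not on mice. edgeR called 0 of 45 members, where 0.00769% of all genes were called, although the unadjusted p was under 0.05 for 34 of 45 members and for 7.83% of all genes. The median departure was 1.49-fold over members and 1.04-fold over all genes. DESeq2 gave an adjusted p for 42 members and called 20 of them higher, where it called 13.3% of the genes with an adjusted p. That adjusted p covered 2162 of the 12999 genes tested, so the DESeq2 and edgeR shares have unlike bases. The calls changed with the libraries used. Without the left ventricle libraries edgeR called 30 of 45 members, against 6.29% of all genes, and DESeq2 33 of 42, against 17.3%. Without the border zone libraries edgeR called 0 of 45, against 0% of all genes, and DESeq2 11 of 40, against 16.9%. There edgeR gave an unadjusted p under 0.05 for 20 members and for 5.77% of all genes. Without the remote zone libraries edgeR called 0 of 45, against 0%, and DESeq2 0 of 45 higher, against 0.00769%. The unadjusted p was under 0.05 for 19 members and 4.65% of all genes in edgeR, and for 13 and 2.45% in DESeq2. DESeq2 gave an adjusted p to 2414 genes without the left ventricle libraries, to 650 without the border zone libraries, and to 12999 without the remote zone libraries. Its shares of called genes therefore differ in their base as well. These fits without a region were chosen after the data had been seen.

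Complex II oxidizes succinate to fumarate. *Sdha*, its flavoprotein (ENSMUSG00000021577, chromosome 13 from 74322254 to 74350280 on GRCm38), had 1741 and 1410 CPM in the left ventricle, 383 and 728 in infarct zone tissue, 1135 and 1411 in the border zone, and 1265 and 1495 in remote tissue. The iron-sulfur subunit *Sdhb* had 929 and 1041 CPM in the left ventricle, 219 and 415 in infarct zone tissue, 668 and 832 in the border zone, and 823 and 848 in remote tissue. The infarct zone was lowest for both in each genotype, and the left ventricle was the one region in which *Sdha* stood lower in TKO.

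*Sdhc* and *Sdhd* anchor the complex in the membrane. *Sdhc* had 487 and 521 CPM in the left ventricle, 133 and 226 in infarct zone tissue, 360.1 and 421 in the border zone, and 429 and 452 in remote tissue. *Sdhd* had 372 and 440.0 CPM in the left ventricle, 132 and 211 in infarct zone tissue, 334 and 386 in the border zone, and 394 and 392 in remote tissue. Infarct zone TKO over WT ratios were 1.90 (95% interval 1.87 to 1.94) for *Sdha*, 1.89 (95% interval 1.84 to 1.94) for *Sdhb*, 1.70 (95% interval 1.64 to 1.76) for *Sdhc*, and 1.60 (95% interval 1.55 to 1.66) for *Sdhd*. The intervals of the anchors lay below those of the catalytic subunits. In the left ventricle *Sdha* had a ratio of 0.810 (95% interval 0.799 to 0.821), whereas *Sdhb*, *Sdhc*, and *Sdhd* had 1.12, 1.07, and 1.18. The ratio of *Sdha* to *Sdhb* counts, which does not depend on library scaling, was 1.87 and 1.35 in the left ventricle, 1.75 and 1.76 in infarct zone tissue, 1.70 and 1.70 in border zone tissue, and 1.54 and 1.76 in remote tissue. The TKO left ventricle stood apart with the lowest value.

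Complex III passes electrons from ubiquinol to cytochrome c through cytochrome b, cytochrome c1, and the Rieske iron-sulfur protein. The cytochrome c1 gene *Cyc1* had 765 and 849 CPM in the left ventricle, 180.5 and 362 in infarct zone tissue, 594 and 740.3 in the border zone, and 719 and 757 in remote tissue. The Rieske protein gene *Uqcrfs1* had 798 and 920.1 CPM in the left ventricle, 197 and 377 in infarct zone tissue, 648 and 771 in the border zone, and 769 and 786 in remote tissue. In both, the TKO infarct zone stood above the WT infarct zone and below every other library.

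For the core proteins, *Uqcrc1* had 602 and 651 CPM in the left ventricle, 116 and 248 in infarct zone tissue, 389 and 508 in the border zone, and 481 and 531 in remote tissue. *Uqcrc2* had 938 and 995 CPM in the left ventricle, 234 and 455 in infarct zone tissue, 716 and 884 in the border zone, and 823 and 918 in remote tissue. Among complex III members *Uqcrc1* had the highest infarct zone TKO over WT ratio, 2.14 (95% interval 2.06 to 2.21), and the lowest WT infarct over left ventricle ratio, 0.193 (95% interval 0.187 to 0.199). *Uqcrh*, the hinge protein that helps dock cytochrome c, was at the other end of both orders with 1.41 (95% interval 1.36 to 1.46) and 0.355 (95% interval 0.345 to 0.367). Levels of *Uqcrh* were 414 and 457 CPM in the left ventricle, 147 and 208 in infarct zone tissue, 366 and 404 in the border zone, and 468 and 403 in remote tissue. Of the other redox and core genes, *Cyc1* had a TKO over WT ratio of 2.003, *Uqcrc2* of 1.94, and *Uqcrfs1* of 1.91. The small subunits *Uqcr10*, *Uqcr11*, *Uqcrb*, and *Uqcrq* had 1.58, 1.67, 1.504, and 1.65, each below the 4 redox and core genes.

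In complex IV, cytochrome c oxidase, 3 subunits have a muscle isoform and a more widely expressed one: *Cox6a2* and *Cox6a1*, *Cox7a1* and *Cox7a2*, and *Cox8b* and *Cox8a*. *Cox6a2* (ENSMUSG00000030785, chromosome 7 from 128205435 to 128206387) had 1403 and 1510.1 CPM in the left ventricle, 309 and 581 in infarct zone tissue, 989 and 1150.2 in the border zone, and 1151 and 1156 in remote tissue. *Cox6a1* (ENSMUSG00000041697, chromosome 5 from 115345642 to 115348981) had 82.6 and 89.0 CPM in the left ventricle, 75.6 and 75.1 in infarct zone tissue, 81.7 and 88.0 in the border zone, and 94.1 and 83.5 in remote tissue. The infarct zone was lowest for both, but the 8 levels of *Cox6a1* all lay between 75.1 and 94.1 CPM.

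*Cox7a1* (ENSMUSG00000074218, chromosome 7 from 30184144 to 30186078) had 773 and 803 CPM in the left ventricle, 128 and 279 in infarct zone tissue, 450.5 and 626 in the border zone, and 619 and 626 in remote tissue. Its partner *Cox7a2* (ENSMUSG00000032330, chromosome 9 from 79755361 to 79759878) had 299 and 317 CPM in the left ventricle, 115 and 155 in infarct zone tissue, 260.5 and 289 in the border zone, and 332 and 295 in remote tissue. Both were lowest in the infarct zone, and *Cox7a1* by more.

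*Cox8b* (ENSMUSG00000025488, chromosome 7 from 140898945 to 140900446) had 632 and 691 CPM in the left ventricle, 154 and 263 in infarct zone tissue, 470.4 and 556 in the border zone, and 609 and 517 in remote tissue. *Cox8a* (ENSMUSG00000035885, chromosome 19 from 7215153 to 7217616) had 126 and 131 CPM in the left ventricle, 88.5 and 93.7 in infarct zone tissue, 120.2 and 124 in the border zone, and 131 and 113 in remote tissue. Here too the infarct zone was lowest for both isoforms, and the muscle isoform stood further below its left ventricle level.

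The infarct over left ventricle ratio in WT was 0.220 (95% interval 0.216 to 0.225) for *Cox6a2* and 0.916 (95% interval 0.867 to 0.967) for *Cox6a1*, 0.165 for *Cox7a1* and 0.384 for *Cox7a2*, and 0.244 for *Cox8b* and 0.703 for *Cox8a*. Between genotypes in the infarct zone, the TKO over WT ratio was 1.88 (95% interval 1.84 to 1.92) for *Cox6a2* and 0.993 (95% interval 0.943 to 1.05) for *Cox6a1*, 2.18 (95% interval 2.11 to 2.26) for *Cox7a1* and 1.35 (95% interval 1.30 to 1.41) for *Cox7a2*, and 1.71 (95% interval 1.65 to 1.76) for *Cox8b* and 1.06 (95% interval 1.01 to 1.11) for *Cox8a*. In every pair the muscle isoform had the larger difference in both comparisons. Scaled by total counts, *Cox6a1* and *Cox8a* stood above the left ventricle in the WT infarct zone (1.63 and 1.25), and *Cox8a* stood below WT in the TKO infarct zone (0.863), so these directions depended on the scaling.

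Within a library the ratio of muscle to partner isoform counts needs no scaling. *Cox6a2* counts over *Cox6a1* counts were 17.0 and 17.0 in the left ventricle, 4.09 and 7.74 in infarct zone tissue, 12.1 and 13.1 in border zone tissue, and 12.2 and 13.8 in remote tissue. The ratios for *Cox7a1* over *Cox7a2* were 2.59 and 2.54 in the left ventricle, 1.12 and 1.80 in infarct zone tissue, 1.73 and 2.17 in border zone tissue, and 1.86 and 2.12 in remote tissue. For *Cox8b* over *Cox8a* they were 5.02 and 5.27 in the left ventricle, 1.74 and 2.80 in infarct zone tissue, 3.91 and 4.50 in border zone tissue, and 4.66 and 4.59 in remote tissue. In all 3 pairs the WT infarct zone was lowest. The TKO infarct zone was next lowest for *Cox6a2* over *Cox6a1* and *Cox8b* over *Cox8a*, whereas for *Cox7a1* over *Cox7a2* the WT border zone lay below it.

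In the infarct zone the TKO ratio exceeded the WT ratio 1.89 (95% interval 1.79 to 2.0) times for *Cox6a2* over *Cox6a1*, 1.62 (95% interval 1.54 to 1.70) times for *Cox7a1* over *Cox7a2*, and 1.61 (95% interval 1.52 to 1.71) times for *Cox8b* over *Cox8a*. In the left ventricle the corresponding values were 0.999 (95% interval 0.941 to 1.06), 0.979 (95% interval 0.944 to 1.01), and 1.05 (95% interval 0.997 to 1.11), and each of these intervals held 1. The border zone gave 1.08, 1.25, and 1.1496, and the remote zone 1.13, 1.14, and 0.986. The summed cardiomyocyte markers were lowest in the WT and next lowest in the TKO infarct zone. The 7 skeletal muscle markers summed to 134 and 473 CPM in the left ventricle and 313 and 300 in infarct zone tissue. All 7 stood above the left ventricle in the WT infarct zone, and 6 of 7 were lower there in TKO than in WT. Of the 7, 4 had no more than 3 counts in at least 1 library, as had 2 of the 4 adipocyte markers. Adipocyte markers summed to 51.6 and 30.4 CPM in the left ventricle and 11.1 and 13.7 in infarct zone tissue. The part of these markers in the isoform ratios was not tested.

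**Figure D3:**
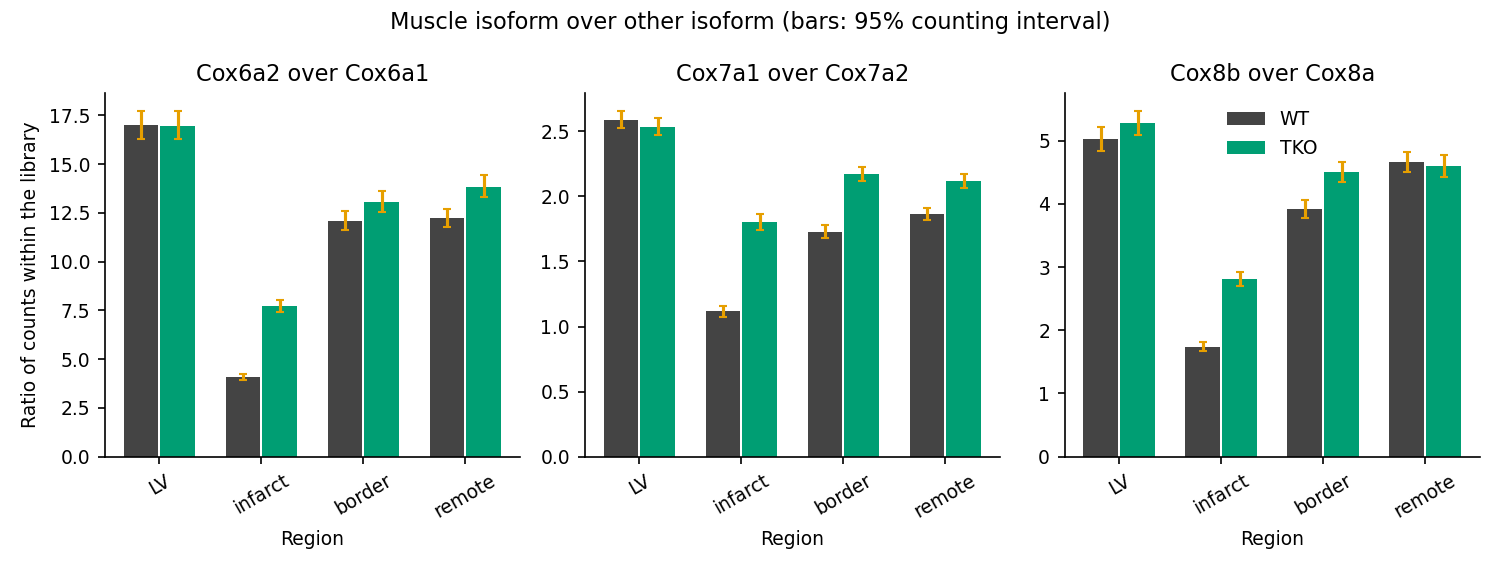
Ratio of estimated counts of the muscle isoform to its partner within each library, by region, with WT in grey and TKO in green and 95% counting intervals in orange. For all 3 pairs the WT infarct zone bar is the lowest and lies below that of TKO, and the left ventricle bars of both genotypes lie within counting error of each other.

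The upstream sequences of 4 of these genes are shown because the 2 isoforms of a pair differed in both comparisons. Each run holds the 250 bases before the RefSeq start on GRCm38.p6, written 5′ to 3′ along the gene, with each CpG in capitals. RefSeq windows were found for 35 of the 46 members. *Cox6a2* had none, so its pair with *Cox6a1* is not shown.
Cox7a1, chr7:30183921-30184170, plus strand: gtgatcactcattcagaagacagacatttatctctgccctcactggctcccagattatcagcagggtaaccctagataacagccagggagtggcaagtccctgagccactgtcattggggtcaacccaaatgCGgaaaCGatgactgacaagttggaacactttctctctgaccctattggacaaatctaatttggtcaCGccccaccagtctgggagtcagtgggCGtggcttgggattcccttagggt
Cox7a2, chr9:79759854-79760103, minus strand: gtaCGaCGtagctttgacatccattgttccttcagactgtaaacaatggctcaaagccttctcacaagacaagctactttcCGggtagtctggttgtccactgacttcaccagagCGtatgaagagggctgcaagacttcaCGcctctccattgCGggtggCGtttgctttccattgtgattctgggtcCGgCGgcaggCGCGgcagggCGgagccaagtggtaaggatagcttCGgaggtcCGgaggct
Cox8b, chr7:140900447-140900696, minus strand: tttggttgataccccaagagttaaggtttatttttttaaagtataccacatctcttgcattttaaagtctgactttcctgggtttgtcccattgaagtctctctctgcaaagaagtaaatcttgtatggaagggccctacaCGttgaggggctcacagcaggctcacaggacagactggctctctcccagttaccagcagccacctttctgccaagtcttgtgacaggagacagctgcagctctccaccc
Cox8a, chr19:7217617-7217866, minus strand: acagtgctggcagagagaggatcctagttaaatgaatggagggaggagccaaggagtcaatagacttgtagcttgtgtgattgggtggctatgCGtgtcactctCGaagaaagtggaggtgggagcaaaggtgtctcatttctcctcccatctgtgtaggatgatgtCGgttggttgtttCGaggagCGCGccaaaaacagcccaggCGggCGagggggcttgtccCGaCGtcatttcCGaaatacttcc

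The muscle isoforms *Cox7a1* and *Cox8b* held 4 and 1 CpGs, whereas *Cox7a2* held 14 and *Cox8a* 11. *Cox6a1* held 26. Over the 35 members the median was 14 CpGs, and it was 16 over the 10092 tested genes with a window. Of those genes 12.2% had no more CpGs than *Cox7a1* and 3.03% no more than *Cox8b*. The windows (these 250 bases and the 50 after the start) were also searched on both strands for letters of 4 factors linked to respiratory genes, none of which contains another. GCATGCGC, the core of the NRF1 motif, was in 6 of 35 members (17.1%), beside 2.80% of all 27025 windows and 5.32% of those of tested genes. CCGGAAG, bound by GABP and other ETS factors, was in 12 members (34.3%), beside 9.12% and 17.7%. AAGGTCA, the half-site of ERR receptors, was in 5 (14.3%), beside 4.66% and 3.01%, and AAGATGGC, the YY1 core, in 2 (5.71%), beside 2.88% and 4.59%. *Cox6a1* held the first and second of these, *Cox8a* the second where its start begins, and *Cox7a1*, *Cox7a2*, and *Cox8b* none of the 4.

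Of the other complex IV pairs, one isoform made up nearly all counts. *Cox4i1* had 1869.8 and 2116 CPM in the left ventricle, 499 and 834 in infarct zone tissue, 1304 and 1563 in the border zone, and 1671 and 1653 in remote tissue. *Cox4i2*, an isoform best known from lung, had 7.08 and 9.92 CPM in the left ventricle, 4.33 and 5.79 in infarct zone tissue, 7.56 and 7.01 in the border zone, and 8.74 and 7.17 in remote tissue. *Cox4i1* counts were 115 to 263 times those of *Cox4i2*, with the lowest ratio in the WT infarct zone. *Cox6b1* had 598 and 702 CPM in the left ventricle, 185 and 300.1 in infarct zone tissue, 484 and 549 in the border zone, and 563 and 542 in remote tissue. *Cox6b2*, an isoform of the testis, had 56 and 75 counts in the left ventricle, 85 and 58 in infarct zone tissue, 47 and 83 in the border zone, and 61 and 55 in remote tissue. Scaled, *Cox6b2* stood at 2.01 and 1.62 CPM in the infarct zone, close to the left ventricle in WT and lowest of the 4 regions in TKO. The *Cox6b2* TKO over WT ratio there was 0.810 (95% interval 0.568 to 1.14), which was not distinguishable from 1 at this depth.

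*Cox7a2l*, a relative of *Cox7a2* that joins complexes III and IV into supercomplexes, had 223 and 261 CPM in the left ventricle, 132 and 159.8 in infarct zone tissue, 214 and 227 in the border zone, and 246 and 235 in remote tissue. Its infarct zone TKO over WT ratio was 1.21 (95% interval 1.16 to 1.25), and its infarct over left ventricle ratio in WT was 0.594 (95% interval 0.572 to 0.616), 1.55 (95% interval 1.47 to 1.63) times that of *Cox7a2*. Under total counts these *Cox7a2l* directions turned, to 0.986 and 1.055. *Cox7b* had 637 and 716 CPM in the left ventricle, 210.4 and 327 in infarct zone tissue, 564 and 657 in the border zone, and 697 and 647 in remote tissue. *Cox7b2* had 4 and 13 counts in the left ventricle, 13 and 2 in infarct zone tissue, 2 and 4 in the border zone, and 1 and 6 in remote tissue, too few to compare.

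The subunits *Cox5a* and *Cox5b* each have a single gene among the members. *Cox5a* had 595 and 678 CPM in the left ventricle, 152 and 274 in infarct zone tissue, 478 and 536 in the border zone, and 565 and 574 in remote tissue. *Cox5b* had 134 and 159 counts in the left ventricle, 33 and 68 in infarct zone tissue, 144 and 95 in the border zone, and 130 and 109 in remote tissue. Per kilobase of annotated transcript *Cox5b* stood at 6.56 CPM in the WT left ventricle. Of its 31-base words, 28.8% also occur in other annotated genes, among them *Gm11273*, so its counts are uncertain. With that limit, *Cox5b* had the highest TKO over WT ratio of complex IV in the infarct zone, 2.42 (95% interval 1.59 to 3.82), and the lowest infarct over left ventricle ratio in WT, 0.161 (95% interval 0.106 to 0.235). Across members, 20 of 45 shared more than 10% of such words with other genes, up to 85.4% for *Atp5l*.

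**Figure D4:**
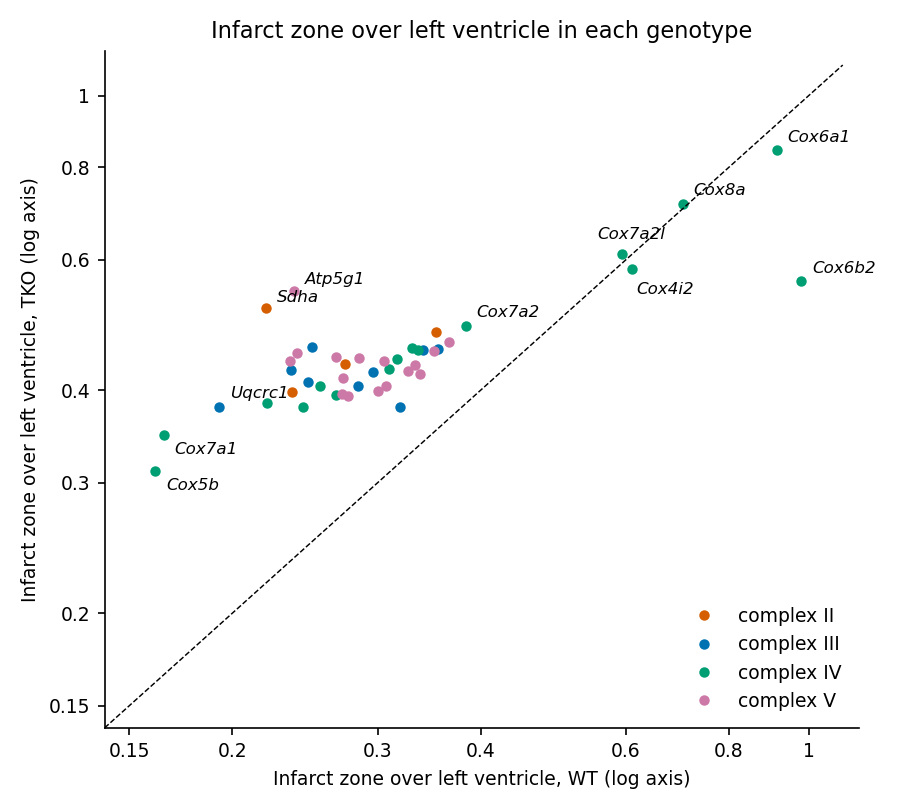
Infarct zone over left ventricle ratio of the 45 members in WT (horizontal, log axis) and TKO (vertical, log axis), coloured by complex, with the dashed line at equal ratios. Most members lie above the line, with WT ratios under 0.4, while *Cox8a*, *Cox7a2l*, and *Cox4i2* lie near it and *Cox6a1* and *Cox6b2* below it.

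Complex V makes ATP in its catalytic head, built around the subunits alpha, beta, and gamma, and turns on a membrane ring of c subunits. The alpha subunit gene *Atp5a1* had 2305 and 2401 CPM in the left ventricle, 552 and 1078 in infarct zone tissue, 1673 and 2021 in the border zone, and 1865 and 2098 in remote tissue. The beta subunit gene *Atp5b* had 5775 and 5786 CPM in the left ventricle, 1357 and 2533 in infarct zone tissue, 4109 and 4745 in the border zone, and 4671 and 4998 in remote tissue. The gamma subunit gene *Atp5c1* had 1096 and 1166 CPM in the left ventricle, 293 and 518 in infarct zone tissue, 879 and 1001 in the border zone, and 1058 and 1037 in remote tissue. All 3 were lowest in the WT infarct zone and next lowest in the TKO infarct zone. Per kilobase of annotated transcript *Atp5b* had the highest level of all members in the WT left ventricle, 3014 CPM per kb, before *Cox4i1* with 2477 and *Cox6a2* with 2063.

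Infarct zone TKO over WT ratios were 1.95 (95% interval 1.92 to 1.98) for *Atp5a1*, the highest of complex V, 1.87 (95% interval 1.85 to 1.89) for *Atp5b*, and 1.77 (95% interval 1.73 to 1.81) for *Atp5c1*. The lowest was 1.48 (95% interval 1.43 to 1.54) for *Atp5md*, a small subunit of the membrane part with 365 and 435 CPM in the left ventricle, 123 and 183 in infarct zone tissue, 312 and 367 in the border zone, and 392 and 354 in remote tissue. Within complex V the infarct over left ventricle ratio in WT ran from 0.235 (95% interval 0.233 to 0.237) for *Atp5b* to 0.367 (95% interval 0.350 to 0.383) for *Atp5mpl*, another small membrane subunit. *Atp5mpl* had 196 and 232 CPM in the left ventricle, 71.8 and 108 in infarct zone tissue, 192 and 196 in the border zone, and 227 and 202 in remote tissue.

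Identical mature c subunits are encoded by several genes, of which *Atp5g1* and *Atp5g3* were measured. *Atp5g1* had 1329 and 1092 CPM in the left ventricle, 316 and 596 in infarct zone tissue, 984 and 1213 in the border zone, and 1179 and 1188 in remote tissue. *Atp5g3* had 1283 and 1527 CPM in the left ventricle, 348 and 603 in infarct zone tissue, 1028 and 1229.6 in the border zone, and 1260.2 and 1290.2 in remote tissue. Counts of *Atp5g1* over *Atp5g3* were 1.04 and 0.715 in the left ventricle, 0.908 and 0.987 in infarct zone tissue, 0.958 and 0.987 in border zone tissue, and 0.936 and 0.920 in remote tissue. The TKO left ventricle again stood apart, and its *Atp5g1* over *Atp5g3* ratio was 0.690 (95% interval 0.676 to 0.705) times that of the WT left ventricle. *Atp5g1* and *Sdha* were the members below WT in the TKO left ventricle, at 0.822 and 0.810, and both had TKO over WT ratios of 1.89 and 1.90 in the infarct zone.

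Members with longer transcripts tended to have larger infarct zone TKO over WT ratios. The 2 highest ratios still belonged to shorter members, *Cox5b* (745 nt, 2.42) and *Cox7a1* (439 nt, 2.18). The 15 members with a median annotated coding transcript of at least 1000 nt had a median ratio of 1.89, and the 30 shorter ones 1.57. Spearman's rho between length and ratio was 0.53 across the 45 members and -0.07 across the 12684 tested genes with a length. In the remote zone rho was 0.64 across members and 0.15 across all genes, and in the left ventricle -0.38 and -0.24. These are correlations across genes, which share each library and are not independent replicates. With the shortest transcript of each gene in place of the median, rho across members was 0.49, 0.62, and -0.34 in the same order. *Atp5g1* is placed by the median of 4 transcripts of 596 to 4715 nt. Without *Sdha* and *Atp5g1*, rho over 43 members was 0.49, 0.61, and -0.29.

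**Figure D5:**
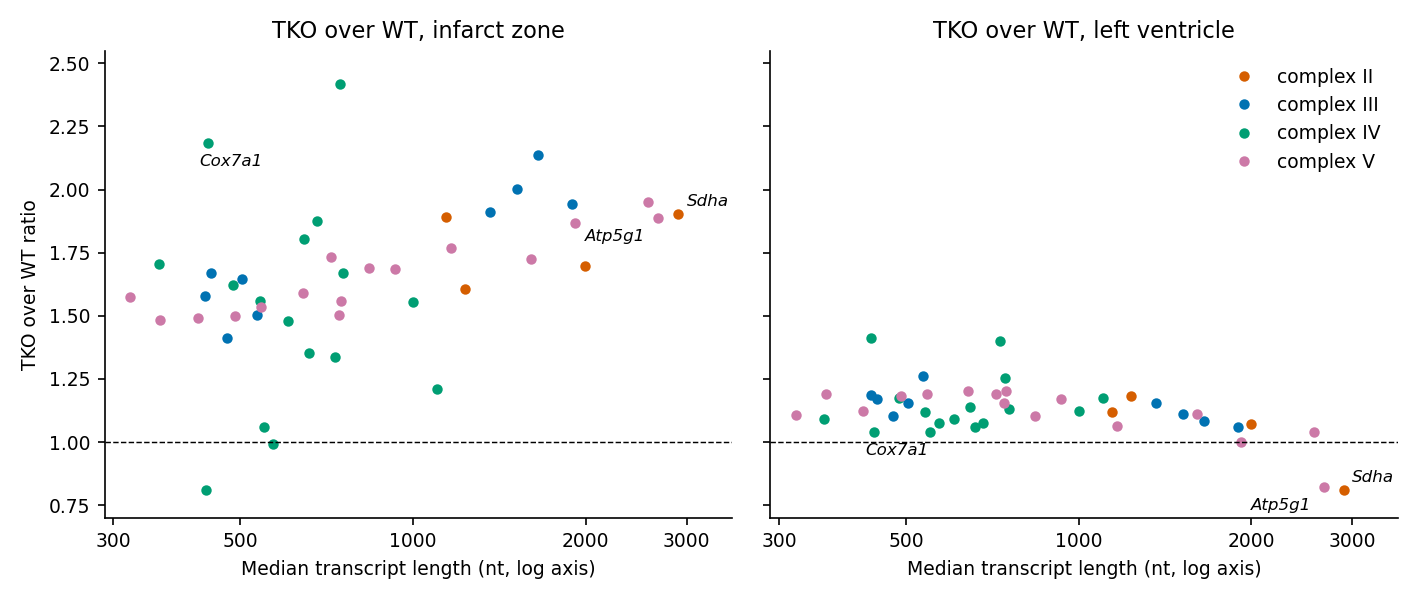
TKO over WT ratio of the 45 members against the median length of their annotated coding transcripts (nt, log axis) in the infarct zone and the left ventricle, coloured by complex, with the dashed line at equal levels. In the infarct zone the 15 members of at least 1000 nt have a median ratio of 1.89, while in the left ventricle *Sdha* and *Atp5g1*, the longest by this measure, lie below 1.

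The subunits encoded by mitochondrial DNA stood higher in the TKO infarct zone as well. For the 6 genes of complexes III to V the TKO over WT ratio ran from 1.43 (*COX2*) to 1.85 (*ATP8*) with a median of 1.56, and 5 of 6 passed 1.5-fold, beside 10.2% of all genes. In the left ventricle their median was 0.999. Under total counts the infarct zone ratios of these 6 genes lay 0.29 lower on the log2 scale, so fewer passed 1.5-fold. *Cycs*, the cytochrome c that carries electrons from complex III to complex IV, had 481 and 568 CPM in the left ventricle, 151 and 245 in infarct zone tissue, 411 and 504 in the border zone, and 539 and 498 in remote tissue. Its infarct zone TKO over WT ratio was 1.63 (95% interval 1.57 to 1.68), near the member median. *Atpif1*, the inhibitor of ATP hydrolysis by complex V, had 105 and 185 CPM in the left ventricle, 70.5 and 91.5 in infarct zone tissue, 122 and 129 in the border zone, and 146 and 129 in remote tissue. It differed from the members in its left ventricle, where TKO stood 1.76-fold above WT.

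Assembly factors, which build the complexes without staying in them, were measured for all 4. In the infarct zone 14 of 43 were at least 1.5-fold higher in TKO, beside 10.2% of all genes, and none at least 1.5-fold lower, with a median of 1.44. The infarct zone against the other regions was called lower for 40 of 43 by edgeR, beside 29.3% of all genes. edgeR called 0 factors between genotypes and 0 for the departure. An unadjusted p under 0.05 was found for 15 of 43 between genotypes, beside 16.2% of all genes, and for 12 of 43 for the departure, beside 7.83%. *Sdhaf2*, which helps attach the flavin to *Sdha*, had the highest TKO over WT ratio, 3.27 (95% interval 2.42 to 4.52), on 58 and 161 counts. *Atpaf1*, which binds the beta subunit during assembly of complex V, had 3.05 (95% interval 2.71 to 3.44), and its levels were 45.6 and 32.8 CPM in the left ventricle, 9.31 and 28.4 in infarct zone tissue, 26.7 and 33.7 in the border zone, and 33.6 and 23.8 in remote tissue. In the TKO infarct zone *Sdhaf2* and *Atpaf1* stood at 0.815 and 0.866 of their own left ventricle level, where the median of the members was 0.435. *Sco2*, a copper chaperone of complex IV, had 2.28 (95% interval 1.75 to 3.003), and *Lrpprc*, which stabilizes mitochondrial messengers, had 2.09 (95% interval 1.98 to 2.20).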

How the data were processed

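RNA from the left ventricle and the infarct, border, and remote zones of WT and TKO hearts was sequenced. The authors trimmed reads (Trim Galore 0.6.5), quantified transcripts with kallisto 0.46 on mm10 (GRCm38), and deposited estimated counts per gene as whole numbers without normalization. They name edgeR 3.34.1 for later steps. The transcriptome release is not given in the sources used here. All 8 columns were used. *Cox8c* and *Atp5g2* had no row with a count under these symbols, so they are not among the members.

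Members and lists were chosen with earlier results of these data known. Any member could be named, with values in every library for a list of subunits and for the extremes of each complex, whereas *Atp5d*, the singled-out assembly factors, and *COX2* were picked after their values were seen. TMM factors were set on the 12999 genes whose mean CPM reached 1. Ratios used a prior count of 0.5 and have exact binomial 95% intervals on counts, and changes of isoform ratios have log-odds intervals with the same prior. Counting intervals take no account of PCR duplicates or of mice. At these totals 3 counts equal 0.0888 to 0.109 CPM.

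Genotype (regions as blocks), infarct zone against the other regions (genotype additive), and their interaction were fitted with edgeR 4.0.16 in R 4.3.3 by glmQLFTest, with Benjamini-Hochberg adjustment over all genes at 0.05, and with DESeq2 1.42.0. In some fits DESeq2 left part of the genes without an adjusted p. The edgeR fits were also run on simulated counts with known changes and independent libraries. That setting does not cover pooled mice, zones of the same hearts, or cell composition. Alternatives were DESeq2 size factors, total counts, TMM over only the 2 libraries compared, mitochondrial genes left out, other filters, a 2-fold limit, a prior count of 2, each region left out, and, chosen after seeing the data, the interaction without each reference region and members sharing at most 10% of their 31-base words. Gene positions came from GENCODE on GRCm38 and promoters from RefSeq on GRCm38.p6. Python 3.11.15, pandas, scipy, and matplotlib made tables and figures.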

Additional observations from a re-analysis of the deposited data

Results flagged for a closer look

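*Sdha* and *Atp5g1* were lower in TKO than in WT in the left ventricle and higher in the infarct zone, with counting intervals away from 1 in both. The ratios were 0.810 for *Sdha* and 0.822 for *Atp5g1* in the left ventricle, and 1.90 and 1.89 in the infarct zone. The difference between these 2 regions was not tested on its own. Against the mean of the other 3 regions, the departure of the infarct zone was 1.80-fold for *Sdha* (edgeR adjusted p = 0.534, DESeq2 0.0342) and 1.87-fold for *Atp5g1* (edgeR adjusted p = 0.432, DESeq2 0.0134). For 22 of 45 members the TKO level was above WT in the infarct zone and below WT in the remote zone, again with both counting intervals away from 1, which held for 4.08% of all genes tested. This difference was not tested between the 2 regions. Counting intervals narrow as counts rise, and 42 of 45 members had a mean count of at least 500. Genes with fewer counts meet such a rule less readily, and the 2 shares were not matched for level. The intervals hold no spread between mice.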

How the results depend on the processing

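Scaling by total counts moved the member medians most, to 1.34 for TKO over WT in infarct zone tissue, 1.09 in the border zone, 0.527 for infarct over left ventricle in WT, and 0.631 in TKO, these keeping their direction, whereas the remote zone over left ventricle median in WT turned from 0.965 to 1.002. It multiplies all genes in a library alike, and the member median relative to that of all genes was 1.64 in the infarct zone under either scaling. Under total counts 12 members passed 1.5-fold for TKO over WT in the infarct zone, against 4.05% of all genes. Under it *Cox4i2* at 1.09, *Cox7a2l* at 1.05, *Cox8a* at 1.25, *Cox6a1* at 1.63, and *Cox6b2* at 1.74 turned above the left ventricle in the WT infarct zone. With TMM, 4 members were at least 2-fold higher in TKO in the infarct zone, beside 325 of 12999 genes tested. The 25 members sharing at most 10% of their 31-base words gave 0.284 for infarct over left ventricle in WT. For the departure of the infarct zone DESeq2 called 20 members, and leaving out the libraries of one other region gave 0 to 33, the cause of which was not tested. In edgeR the infarct zone count was 43 members without the left ventricle, border, or remote zone libraries in turn, and the genotype count 0 without any one region. The labels give no replicate numbers, so WT and TKO were paired by region alone, as the block of the genotype fit. Depth limits mainly *Cox6b2*, *Cox5b*, and *Cox7b2*, which had few counts, and the spread between mice is unknown for every ratio.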

Other observations

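*COX2*, a catalytic core subunit of complex IV encoded by mitochondrial DNA, had 27992 and 34648 CPM in the left ventricle, 10425 and 14945 in infarct zone tissue, 16627 and 18382 in the border zone, and 20883 and 20328 in remote tissue. Relative to the left ventricle it stood at 0.594 in WT and 0.531 in TKO in the border zone and at 0.746 and 0.587 in the remote zone, whereas *COX3*, another core subunit, had 42612 and 41965 CPM in the left ventricle, 14011 and 21713 in infarct zone tissue, 41163 and 44419 in the border zone, and 48253 and 45114 in remote tissue. *Sco2* stood at 0.513 of its WT left ventricle level in the WT border zone and at 0.478 in the WT remote zone. *Atpaf1* stood at 0.719 of the WT level in the TKO left ventricle. The 4 atrial muscle markers summed to 188 and 299 CPM in the left ventricle, 3045 and 2093 in the infarct zone, 1725 and 494 in the border zone, and 2494 and 691 in the remote zone. In the TKO infarct zone only 1 of these 4 markers stood above its left ventricle level and 3 stood below it, so the sum there does not stand for the set. The part of these markers in the border and remote zone values of the members was not tested.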
